A study of Saccharomyces cerevisiae with 18 samples.

Results

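The yeast strain LP104-17 was sampled at 24 h and at 6 h of flask culture, and the change between those times is described here across all genes. The comparison used the 6 RNA-seq libraries of LP104-17, 3 from 24 h and 3 from 6 h, of 18 libraries in all. The other 12 came from the strains LP085-Vc and LP118 at the same times, and they entered the model and the strain comparisons at the end. All 3 strains are Saccharomyces cerevisiae of the laboratory background BY4742, a haploid strain of mating type alpha with deleted HIS3, LEU2, LYS2 and URA3 loci, and the series describes them as making diosgenin (a steroidal sapogenin of plants). The labels give no genotype, plasmid or introduced gene for any strain, and no label says whether LP104-17 is a single clone. All cultures were grown in synthetic medium with 2% (w/v) glucose, with no further treatment named. Total counts per library, in units of 1e6, were 6.15, 7.04 and 6.71 at 24 h and 5.34, 7.23 and 6.55 at 6 h. The labels do not say that the 3 libraries of a time are from independent cultures. The p-values here reflect the spread within the 6 groups of strain and time, estimated from all 18 libraries, whatever its source.

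When S. cerevisiae grows on glucose it ferments the sugar to ethanol even with oxygen present, and glucose keeps the genes for respiration and for other carbon sources low. Once the glucose is used up, cells pass the diauxic shift: they take up the ethanol, oxidise it through acetate and acetyl-CoA, build sugars by gluconeogenesis and rely on the mitochondrial respiratory chain. The shift is known for lower expression of glycolytic, ribosomal and growth genes and for higher expression of stress and reserve carbohydrate genes. No glucose or ethanol measurement was among the files used here. In RNA from whole cultures, fewer cells expressing a gene and less RNA of it per cell cannot be told apart.

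Of 6600 genes in the tables, 6131 had enough counts to be tested. At 24 h, 2160 of them were called higher than at 6 h (35.2% of the tested genes) and 2187 were called lower (35.7%), at a Benjamini-Hochberg adjusted p below 0.05 in edgeR's quasi-likelihood test. The remaining 1784 were not called, and the median log2 fold change over all tested genes was 0.001. Called changes of at least 2-fold numbered 883 in the higher direction and 908 in the lower direction, and changes of at least 32-fold numbered 28 and 13. The libraries of the 2 times did not overlap in 71.4% of the tested genes. The 14 largest rises and 14 largest falls named below were taken only from such genes. The rises were DPA10, RGI2, MLS1, SIP18, SPG4, PCK1, SFC1, GRE1, FIT3, SPG1, FBP1, JEN1, PDC6 and IDP2. The falls were ENO2, VEL1, ANB1, SSA2, TDH2, GPM1, NDJ1, HXT1, TDH3, ARI1, HXT3, ZPS1, CDC19 and LYS9. For these genes, lack of overlap was a condition of naming and is not a separate result. Values below are counts per 1e6 counts (CPM) in TMM-scaled libraries, each list of 3 gives replicates 1 to 3, and fold changes are log2 of 24 h over 6 h ± standard error (SE). The shares 35.2% and 35.7% and the median of 0.001 are the background for every gene group below.

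Correlations across genes of log2 CPM ran from 0.986 to 0.992 among the 24 h libraries, from 0.968 to 0.990 among the 6 h libraries and from 0.800 to 0.836 between the times. Libraries of one time differed by gene length. Set against the mean of the other libraries of its time, the median of short genes, of at most 642 coding bases, was -0.21, 0.18 and 0.07 on the log2 scale in replicates 1, 2 and 3 of 24 h and -0.10, 0.29 and -0.17 in those of 6 h. For long genes, of at least 1824 bases, it was 0.16, -0.13 and -0.03 at 24 h and 0.12, -0.26 and 0.14 at 6 h, so replicate 2 of 6 h had the widest gap. Gene length and fold change were barely related across genes (Spearman's rho 0.0267), and genes are not independent replicates. The 20 most counted genes held 15.2% to 16% of the counts at 24 h and 13% to 13.8% at 6 h. The alpha pheromone gene MF(ALPHA)1 had 1099, 1066 and 978 CPM at 24 h and 1259, 1412 and 1131 CPM at 6 h, while MFA1, the a-factor gene of the opposite mating type, had 3.38, 7.08 and 6.23 CPM at 24 h and 1.62, 0.67 and 0.45 CPM at 6 h. MF(ALPHA)1 was thus high and MFA1 low in all 6 libraries. The list of 7 a cell genes, which holds MFA1, summed to 68.5 ± 2.75 CPM at 24 h and 51.2 ± 0.97 CPM at 6 h (SD). Most of these sums came from members other than MFA1. URA3, deleted in BY4742, had 0 counts in every library except for 1 count in replicate 2 of 6 h. The list of 7 auxotrophic marker loci summed to 1345 ± 26.6 CPM at 24 h and 1635 ± 192 CPM at 6 h (SD). Members other than URA3 were thus counted. All 7 loci passed the count filter, which reads all 18 libraries. URA3 therefore passed it through libraries of the other strains, whose URA3 counts are not described here. HIS3, LEU2 and LYS2 are not described singly, so URA3 alone does not check the stated background.

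**Figure D1:**
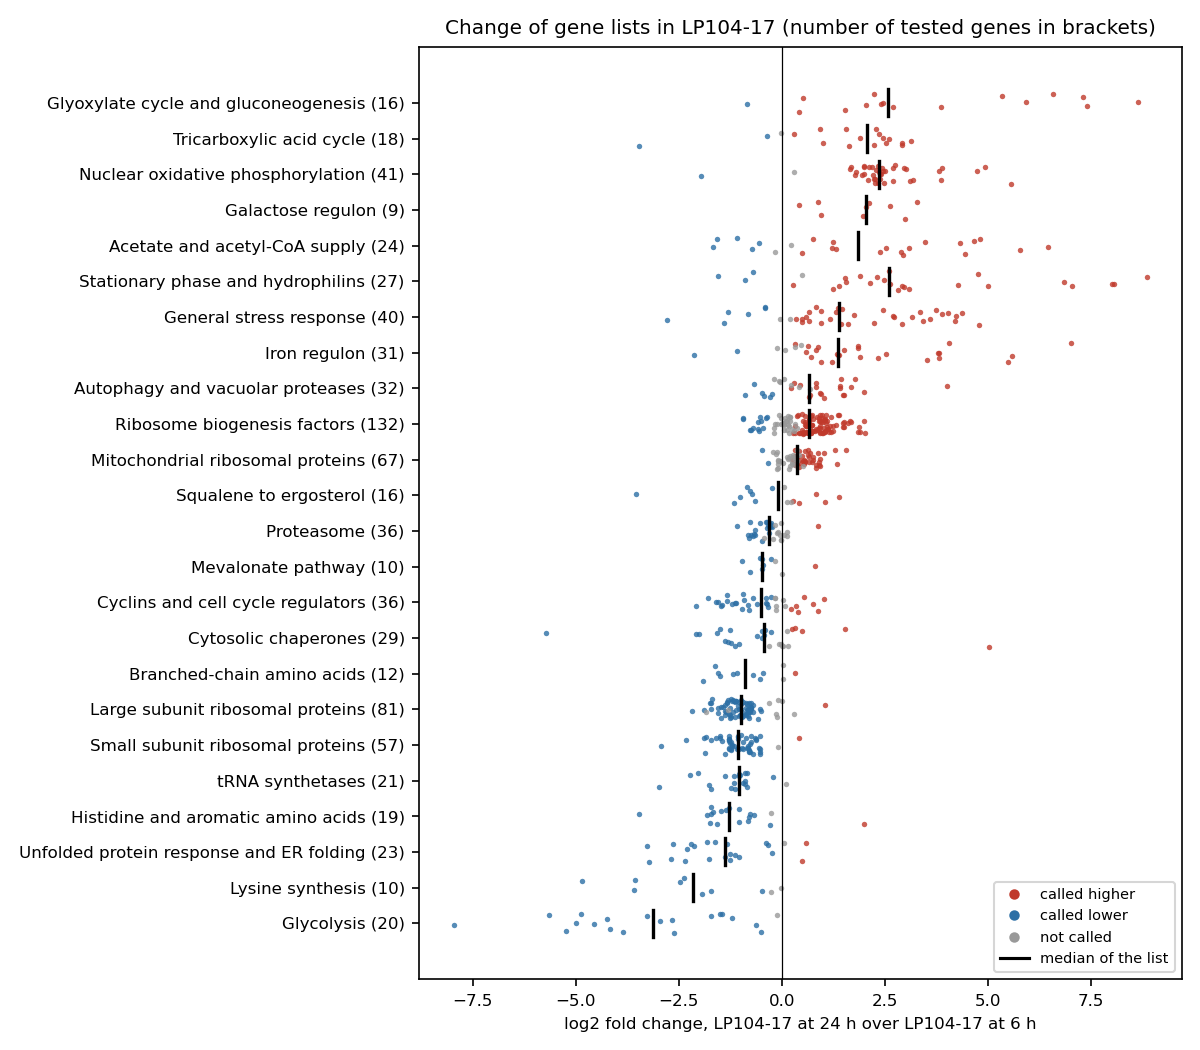
Log2 fold changes of LP104-17 at 24 h over 6 h for the tested members of 24 gene lists, one point per gene and a bar at each list's median, coloured by the call at an adjusted p below 0.05. Respiratory, glyoxylate, galactose, stress and stationary-phase lists lie mostly right of 0, and glycolytic, lysine, secretory folding, tRNA synthetase and ribosomal protein lists lie mostly left of 0.

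Glycolysis had the lowest median of the gene groups examined. Of 20 tested genes of glycolysis, 19 were lower at 24 h and 0 higher, with a median log2 fold change of -3.12. Summed over the group, glycolytic transcripts held 6176, 5910 and 5851 CPM at 24 h, against 82857, 82164 and 86252 CPM at 6 h. The 3 sums at 24 h all lay far below the 3 at 6 h. The enolase gene ENO2 had 57.0, 55.2 and 53.0 CPM at 24 h and 13899, 12792 and 14429 CPM at 6 h, a log2 fold change of -7.96 ± 0.16 (adjusted p = 1.73e-18, edgeR), which was the largest fall that met the naming rule. It was 249-fold lower at 24 h, with no overlap between the times, which was a condition of naming. TDH3, the main glyceraldehyde-3-phosphate dehydrogenase gene, had 508, 513 and 480 CPM at 24 h and 16206, 15682 and 16481 CPM at 6 h (-5.01 ± 0.11). All 3 libraries of 24 h were again below all of 6 h.

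Further steps of the pathway moved the same way. Log2 fold changes were -5.66 for TDH2, -5.25 for phosphoglycerate mutase GPM1, -4.87 for pyruvate kinase CDC19, -4.55 for phosphoglycerate kinase PGK1, -4.24 for aldolase FBA1 and -3.85 for triose-phosphate isomerase TPI1. The hexose-phosphorylating enzymes at the head of the pathway differed among themselves in size: HXK2 was at -3.28, glucokinase GLK1 at -1.22 and HXK1 at -0.50. The phosphofructokinase subunits PFK1 (-1.46) and PFK2 (-1.72) were also lower. TDH1, TDH2 and TDH3 and the pair ENO1 and ENO2 are near copies, so how their reads were divided is uncertain.

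The genes of ethanol fermentation were split, with 4 of 11 higher and 5 lower at 24 h. Pyruvate decarboxylase PDC1, which commits pyruvate to fermentation, had 342, 319 and 309 CPM at 24 h and 8969, 7746 and 9622 CPM at 6 h (-4.76 ± 0.13). Its minor relative PDC6 went the other way, with 202, 180 and 195 CPM at 24 h and 2.89, 2.14 and 4.35 CPM at 6 h (5.94 ± 0.15). Neither gene had overlapping values between the times, though both belong to a family of similar sequence. ADH1, the alcohol dehydrogenase that makes ethanol, had 763, 769 and 714 CPM at 24 h and 4579, 4289 and 4812 CPM at 6 h (-2.61 ± 0.11). ADH2, the enzyme that consumes ethanol, had 295, 299 and 257 CPM at 24 h and 16.1, 13.5 and 13.5 CPM at 6 h (4.31 ± 0.12). ADH1 was thus lower and ADH2 higher in every library of 24 h than in any of 6 h.

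Of 17 tested hexose transporters and sensors, 7 were higher at 24 h and 8 lower, with a median of 0.37. HXT1, a low-affinity glucose transporter, had 13.2, 7.22 and 9.99 CPM at 24 h and 339, 331 and 358 CPM at 6 h (-5.09 ± 0.14), and HXT3, another, had 53.7, 51.4 and 56.7 CPM at 24 h and 1638, 1576 and 1663 CPM at 6 h (-4.91 ± 0.09). HXT5, a transporter known from slow-growing cells, had 1073, 991 and 1054 CPM at 24 h and 40.8, 34.4 and 44.8 CPM at 6 h (4.70 ± 0.12). None of these 3 genes overlapped between the times. HXT4 (-3.73), HXT11 (-1.74), HXT17 (-1.46), HXT8 (-1.16) and HXT2 (-1.08) were also lower, and HXT10 (3.29) and HXT9 (1.06) were higher. Of the glucose sensor genes, SNF3 was higher (1.83) and RGT2 lower (-0.61). HXT6 rose by 3.60 on the log2 scale. HXT7, its near-identical neighbour on chromosome IV, was called at 0.41, a call that was lost without replicate 1 or 3 of 6 h or without replicate 2 or 3 of 24 h. Reads of this pair cannot be separated with certainty, nor can those of other similar transporters such as HXT9 and HXT11.

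Regulators of glucose repression included 15 higher and 6 lower genes of 24. HAP4, the activating subunit of the complex that drives respiratory genes, rose by 3.20, and CAT8, ADR1 and SIP4, activators of genes for non-fermentable carbon, rose by 2.55, 2.09 and 2.39. CAT8 had 251, 204 and 232 CPM at 24 h and 50.9, 24.9 and 42.7 CPM at 6 h, so its times did not overlap. The largest rise of the list was that of REG2 (4.43), a regulatory subunit of the phosphatase GLC7. The lower genes were STD1 (-2.93), a regulator of glucose sensing whose relative MTH1 rose by 1.98, the stress activator MSN2 (-1.35), the subunits GAL83 (-1.13) and SNF4 (-0.97) of the SNF1 kinase complex, the kinase RIM15 (-0.65) and MIG1 (-0.44), a repressor active on glucose. SUC2, the invertase gene that glucose represses, had 476, 435 and 483 CPM at 24 h and 94.7, 85.7 and 98.0 CPM at 6 h (2.32 ± 0.10).

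Of the gene groups examined, the galactose genes held the most reads at 24 h. All 9 tested genes of the galactose regulon were higher at 24 h, with a median of 2.04, and together they held 83065, 78413 and 78248 CPM at 24 h, against 12117, 12033 and 13202 CPM at 6 h. GAL1, the galactokinase gene (chrII:279021-280607), had 25005, 24358 and 23526 CPM at 24 h and 3016, 2893 and 3297 CPM at 6 h (2.99 ± 0.08). GAL10, the epimerase gene next to it, had 25513, 23089 and 23431 CPM at 24 h and 3944, 3370 and 4327 CPM at 6 h (2.63 ± 0.10). GAL7, the transferase gene, rose by 2.04 and the permease gene GAL2 by 3.28, and none of the 4 overlapped between the times. Per length, GAL1 reached 15559 ± 343 FPKM at 24 h and 1918 ± 113 FPKM at 6 h (SD, n = 3 each), against 509 ± 15.8 and 16015 ± 326 FPKM for TDH3.

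These genes are induced by galactose in wild-type yeast, and the labels name only glucose in the medium. Their activator GAL4 had 72.7, 69.1 and 77.3 CPM at 24 h and 41.5, 36.3 and 42.3 CPM at 6 h (0.87 ± 0.10), and the inducer gene GAL3 rose by 2.13. GAL80, the repressor that holds GAL4 inactive, was too low to be tested, with 1, 0 and 0 counts at 24 h and 0, 12 and 1 counts at 6 h. Whether the low GAL80 counts bear on the level of the galactose genes was not tested.

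Genes for using 2-carbon compounds gave many of the largest rises. Of 16 genes of the glyoxylate cycle and gluconeogenesis, 15 were higher at 24 h and 1 lower, with a median of 2.58, and their summed level was 19239, 19154 and 19022 CPM at 24 h against 1530, 1362 and 1499 CPM at 6 h. Malate synthase MLS1, the glyoxylate cycle enzyme (chrXIV:406358-408022), had 3773, 4065 and 3887 CPM at 24 h and 11.5, 8.97 and 8.84 CPM at 6 h, a log2 fold change of 8.65 ± 0.17 (adjusted p = 1.33e-18, edgeR) or 402-fold. Isocitrate lyase ICL1, the other enzyme of that cycle, had 4549, 4429 and 4439 CPM at 24 h and 133, 87.2 and 109 CPM at 6 h (5.35 ± 0.13). Both were above all 6 h values in each 24 h library.

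PCK1, which makes phosphoenolpyruvate from oxaloacetate in gluconeogenesis, had 3135, 2916 and 2995 CPM at 24 h and 20.9, 16.1 and 16.5 CPM at 6 h (7.41 ± 0.12). FBP1, fructose-1,6-bisphosphatase, had 1138, 1295 and 1216 CPM at 24 h and 14.6, 11.4 and 12.4 CPM at 6 h (6.58 ± 0.18). Both steps bypass irreversible reactions of glycolysis, and neither gene overlapped between the times. The succinate-fumarate carrier SFC1 rose by 7.32, cytosolic isocitrate dehydrogenase IDP2 by 5.93 and the glycerol transporter STL1 by 3.87. MDH2, the cytosolic malate dehydrogenase of the same pathway, rose by 0.51. DAL7, a malate synthase of allantoin breakdown, was the lower member, with 33.0, 32.1 and 31.6 CPM at 24 h and 70.2, 52.8 and 52.3 CPM at 6 h (-0.85 ± 0.13).

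Supply of acetate and acetyl-CoA followed, with 17 of 24 genes higher, 5 lower and a median of 1.85. The lactate and pyruvate permease JEN1 had 2047, 1826 and 1928 CPM at 24 h and 23.1, 18.2 and 24.6 CPM at 6 h (6.46 ± 0.12). Acetyl-CoA synthetase ACS1 had 564, 475 and 546 CPM at 24 h and 23.5, 23.2 and 25.9 CPM at 6 h (4.45 ± 0.11), and cytosolic aldehyde dehydrogenase ALD6 had 4133, 3803 and 3690 CPM at 24 h and 449, 513 and 596 CPM at 6 h (2.90 ± 0.11). The times did not overlap for any of them. The carnitine carrier CRC1 rose by 5.79 and the carnitine acetyltransferases YAT1, YAT2 and CAT2 by 4.68, 3.48 and 2.94. Subunits of the mitochondrial pyruvate carrier were divided, MPC3 rising by 4.33 and MPC2 falling by 1.57.

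**Figure D2:**
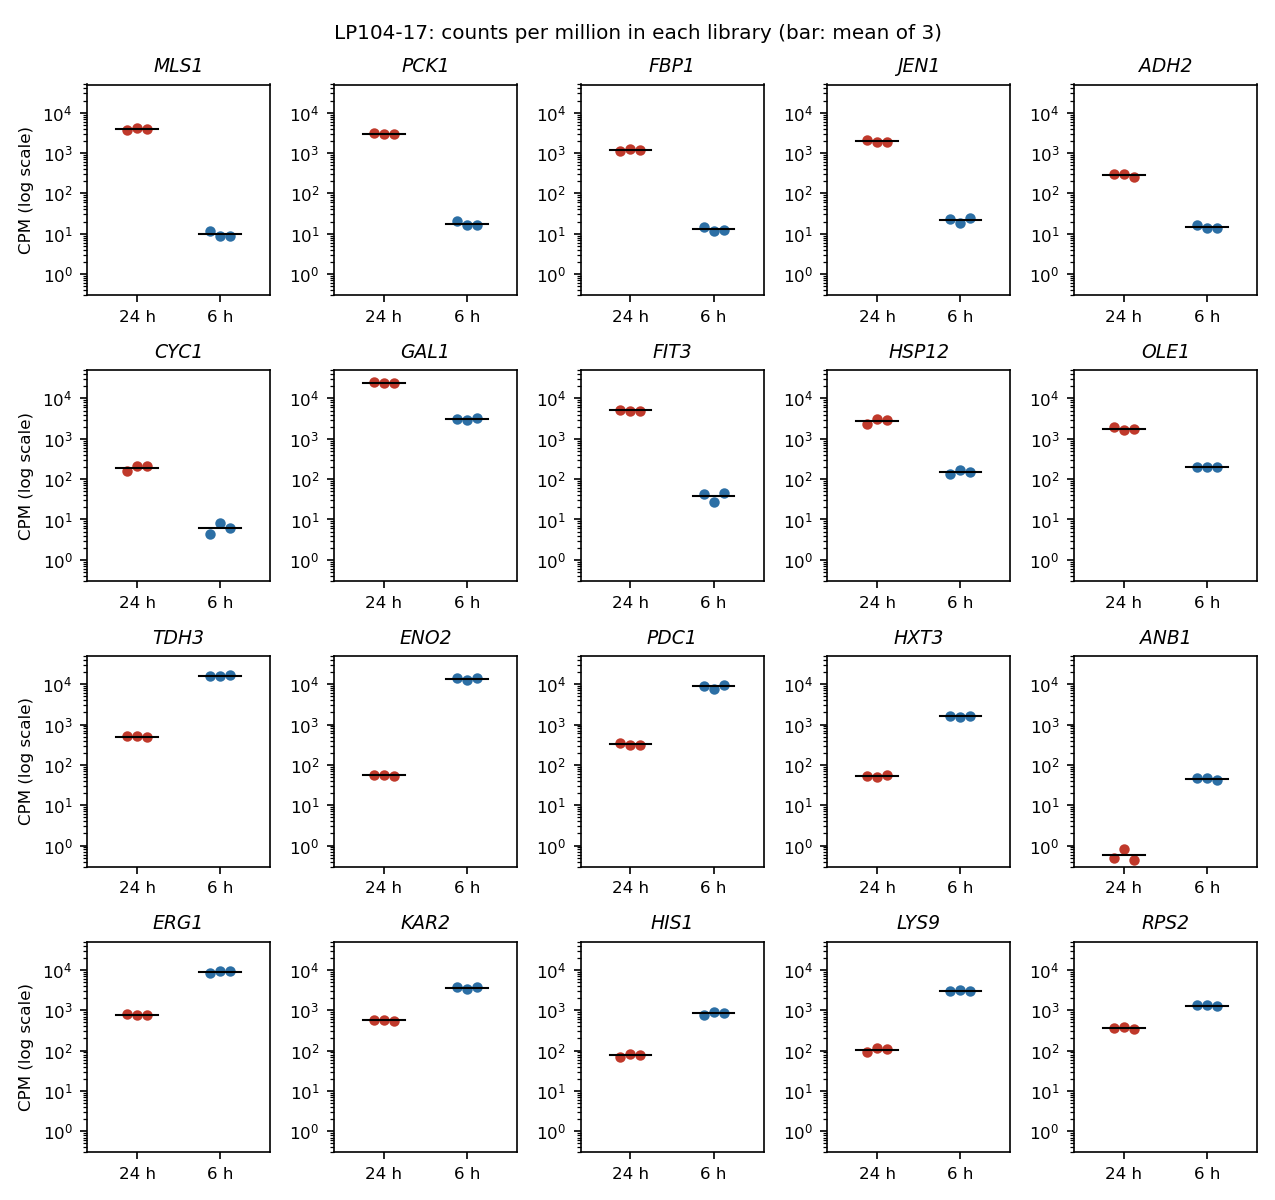
CPM on a log scale in each of the 3 libraries of 24 h (left in each panel) and of 6 h for 20 genes of LP104-17, with a bar at the mean. MLS1, PCK1, FBP1, JEN1, ADH2, CYC1, GAL1, FIT3, HSP12 and OLE1 were higher at 24 h in all libraries, and TDH3, ENO2, PDC1, HXT3, ANB1, ERG1, KAR2, HIS1, LYS9 and RPS2 were lower.

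Of 18 genes of the tricarboxylic acid cycle, 15 were higher and 2 lower, with a median of 2.08. Citrate synthase CIT1, the entry enzyme, had 3174, 3229 and 3056 CPM at 24 h and 359, 342 and 375 CPM at 6 h (3.14 ± 0.09). The flavoprotein subunit of succinate dehydrogenase, SDH1, had 1333, 1150 and 1256 CPM at 24 h and 158, 154 and 185 CPM at 6 h (2.91 ± 0.11). Every library of 24 h was above every library of 6 h for both genes.

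Nuclear genes of oxidative phosphorylation rose together: 39 of 41 were higher, each at least 2-fold, 1 was lower and the median was 2.37. The external NADH dehydrogenase NDE1 had 1389, 1288 and 1272 CPM at 24 h and 26.0, 25.8 and 31.0 CPM at 6 h (5.57 ± 0.11). CYC1, the main cytochrome c, had 157, 214 and 209 CPM at 24 h and 4.33, 8.04 and 6.15 CPM at 6 h (4.93 ± 0.22), and the times did not overlap. The Rieske protein RIP1 of the bc1 complex rose by 2.69, QCR7 of the same complex by 2.51 and ATP1, of the ATP synthase, by 1.80.

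The exception was an isoform pair. COX5B, the subunit of cytochrome c oxidase known to be used when oxygen is low, had 38, 49.5 and 59.2 CPM at 24 h and 178, 228 and 170 CPM at 6 h (-1.97 ± 0.15). COX5A, its counterpart in aerobic cells, had 954, 1092 and 1070 CPM at 24 h and 119, 131 and 91.7 CPM at 6 h (3.19 ± 0.14). Per gene the times did not overlap, and the isoforms moved in opposite directions. Promoters were searched from 250 bases before to 50 after each gene start in the RefSeq sequences of build R64, on both strands, for CCAAT, the letters bound by the HAP complex. These letters were in 33 of 41 promoters of the oxidative phosphorylation genes (80.5%) and in 43.7% of all 5916 promoters. Among all genes called higher they were in 44.7%, and among all called lower in 45%. Among genes called with changes of at least 2-fold, they were in 46.4% of the higher and 43.2% of the lower. With only bases before the gene start searched, they were in 38% of all genes called higher and 35.7% of all called lower. Whether these letters bear on the changes was not tested. The stretch of the COX5A promoter at chrXIV:531525-531624 (plus strand) is shown because it holds both a forward and a reverse copy, in capitals (ATTGG is CCAAT read on the other strand).
COX5A: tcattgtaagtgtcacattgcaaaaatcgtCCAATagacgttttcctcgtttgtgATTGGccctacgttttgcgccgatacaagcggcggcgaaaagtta

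Peroxisomal beta-oxidation, which shortens fatty acids to acetyl-CoA, had 15 higher and 2 lower genes of 17, with a median of 0.66. The thiolase POT1 had 79.0, 82.9 and 84.7 CPM at 24 h and 14.8, 11.7 and 15.1 CPM at 6 h (2.57 ± 0.12), and peroxisomal acyl-CoA synthetase FAA2 rose by 1.99. The acyl-CoA oxidase POX1, the first enzyme of the cycle, had 40.5, 38.6 and 39.8 CPM at 24 h and 17.9, 18.3 and 20.2 CPM at 6 h (1.07 ± 0.13). No values of POT1 or POX1 overlapped between the times.

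Stress genes were mostly higher. Of 40 genes of the general stress response, 32 were higher and 6 lower at 24 h, with a median of 1.40, and their summed level was 31336, 35024 and 33791 CPM at 24 h against 9992, 10992 and 10353 CPM at 6 h. The membrane stress protein HSP12 had 2330, 3054 and 2864 CPM at 24 h and 136, 164 and 149 CPM at 6 h (4.20 ± 0.12). The small chaperone HSP26 had 4922, 5723 and 5117 CPM at 24 h and 526, 515 and 495 CPM at 6 h (3.36 ± 0.10), and the DNA damage responsive gene DDR2 had 852, 890 and 844 CPM at 24 h and 48.7, 60.4 and 49.2 CPM at 6 h (4.03 ± 0.14). All 3 were separated between the times. Lower members included GPP2, glycerol-3-phosphatase, with 94.9, 96.3 and 95.1 CPM at 24 h and 614, 654 and 699 CPM at 6 h (-2.78 ± 0.08), DDR48 (-1.40) and the aldose reductase GRE3 (-1.30).

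The stress response element AGGGG, known as the site of the stress activators MSN2 and MSN4, was in 29 of 40 promoters of the stress genes (72.5%) and in 21.9% of all promoters. Among all genes called higher it was in 25%, and among all called lower in 19.5%. Stretches of the HSP12 promoter at chrVI:107006-107105 (plus strand) and of the DDR2 promoter at chrXV:231906-232005 (minus strand) are shown because they hold several copies, all on the opposite strand and therefore in capitals as CCCCT.
HSP12: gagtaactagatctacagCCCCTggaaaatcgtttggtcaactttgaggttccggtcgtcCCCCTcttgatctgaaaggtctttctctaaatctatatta
DDR2: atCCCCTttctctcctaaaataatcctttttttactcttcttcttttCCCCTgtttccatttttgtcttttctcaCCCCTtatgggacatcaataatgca

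Stationary-phase and hydrophilin genes held several of the largest rises of the whole table, with 23 of 27 higher, 3 lower and a median of 2.61. RGI2, named for a role in respiratory growth, had 299, 460 and 420 CPM at 24 h and 0.722, 0.670 and 1.05 CPM at 6 h (8.88 ± 0.27). The 6 h values stood on 4, 5 and 7 counts. SIP18, a hydrophilin of desiccated cells, had 501, 928 and 1054 CPM at 24 h and 2.53, 3.35 and 3.30 CPM at 6 h (8.06 ± 0.33), with replicate 1 of 24 h well below the other two. SPG4 (8.02), GRE1 (7.06) and SPG1 (6.86) rose by similar amounts, and SNZ1, a vitamin B6 synthesis gene of starved cells, by 4.77. DPA10 (chrXII:746848-747111) had the largest rise that met the naming rule, with 446, 481 and 445 CPM at 24 h and 0.902, 0.937 and 0.749 CPM at 6 h (9.02 ± 0.20), on 5, 7 and 5 counts at 6 h.

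Trehalose and glycogen genes were mixed, with 12 of 22 higher and 8 lower (median 0.36). The 4 genes of the trehalose synthase complex, TPS1 (-0.48), TPS2 (-1.03), TPS3 (-1.46) and TSL1 (-1.06), were lower, as were glycogen synthase GSY1 (-1.13), glycogen phosphorylase GPH1 (-0.38), the phosphoglucomutase PGM1 (-1.12) and UGP1, which makes UDP-glucose (-1.94). The other glycogen synthase gene, GSY2 (-0.24), was not called, though it was called lower without replicate 2 of 6 h or replicate 1 of 24 h. Higher genes included the glycogen primers GLG2 (1.98) and GLG1 (0.75), glycogen branching enzyme GLC3 (1.10), debranching enzyme GDB1 (1.26), vacuolar trehalase ATH1 (1.29) and the phosphatase targeting subunit GAC1 (2.96). TSL1 had 438, 310 and 379 CPM at 24 h and 836, 602 and 914 CPM at 6 h, and its values did not overlap between the times.

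Cytosolic chaperones were mainly lower, with 17 of 29 lower and 5 higher. SSA2, an Hsp70 of growing cells, had 41.7, 47.9 and 46.6 CPM at 24 h and 2450, 2323 and 2452 CPM at 6 h (-5.73 ± 0.11). Its relative SSA3, known from stationary phase, had 1972, 2124 and 2020 CPM at 24 h and 78.1, 47.0 and 62.4 CPM at 6 h (5.03 ± 0.14). The levels of the pair were thus exchanged between the times, without overlap. SSA1, the close copy of SSA2, fell by 1.26, and their division of reads is uncertain. HSC82 (-1.58) and its heat-inducible copy HSP82 (-0.48) fell. Oxidative defence genes were mixed (19 of 32 higher, 9 lower), with GPX1 (3.16), mitochondrial superoxide dismutase SOD2 (1.78) and catalase CTT1 (1.75) higher and thioredoxin TRX1 (-1.67) and peroxiredoxin TSA1 (-0.99) lower.

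Ribosome building and the ribosome itself moved in opposite directions. Ribosome biogenesis factors cut, modify and assemble ribosomal RNA with proteins, and in yeast they usually fall together with ribosomal protein genes when growth slows. Of 132 such factors, 92 were higher at 24 h, 13 lower and 27 not called, with a median of 0.65 and summed levels of 11420, 11265 and 10801 CPM at 24 h against 7272, 7711 and 7121 CPM at 6 h. Of 57 small-subunit ribosomal protein genes, 55 were lower and 1 higher (median -1.06). Of 81 large-subunit genes, 72 were lower and 1 higher (median -1.0). Without replicate 2 of 6 h, the library with the highest values for short genes, the medians were 0.71, -0.90 and -0.88. Many ribosomal protein genes exist as near-identical pairs, so single members are uncertain.

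Among the factors, LTV1, a small-subunit assembly and export factor, had 123, 128 and 122 CPM at 24 h and 32.3, 34.3 and 25.3 CPM at 6 h (2.02 ± 0.12). The large-subunit remodelling ATPase REA1 had 353, 266 and 291 CPM at 24 h and 84.4, 57.6 and 86.3 CPM at 6 h (2.00 ± 0.14). RIO1, a kinase of the last steps of small-subunit maturation, had 222, 208 and 228 CPM at 24 h and 63.0, 61.3 and 55.0 CPM at 6 h (1.88 ± 0.08). All 3 genes were higher in every library of 24 h. The 13 lower factors ran from -0.37 to -0.94 and were RRP7, FPR3, LCP5, UTP18, NHP2, NOP56, GAR1, EMG1, CBF5, UTP22, UTP15, NOP1 and NOP58. They include core proteins of both classes of small nucleolar RNA particle: NOP1, NOP56 and NOP58 of the box C/D class and CBF5, GAR1 and NHP2 of the box H/ACA class. NOP1, the methyltransferase fibrillarin, had 148, 143 and 141 CPM at 24 h and 271, 291 and 263 CPM at 6 h (-0.94 ± 0.10), and NOP58 had 69.5, 73.4 and 67.2 CPM at 24 h and 130, 148 and 124 CPM at 6 h (-0.94 ± 0.11).

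Promoters of the factors shared short sequences. GATGAG, the PAC element, was in 91.7% of the 132 promoters of the factors and in 19.8% of all promoters. AAAATTTT, the core of the RRPE element, reads the same on both strands and was in 103 of 132 (78%) and in 9.13% of all. Among all genes called higher it was in 9.62%, and among all called lower in 9.73%. Stretches are shown for the rising genes LTV1 at chrXI:176601-176700 (plus strand) and RIO1 at chrXV:550321-550420 (minus strand) and for the falling genes NOP1 at chrIV:427114-427213 (plus strand) and NOP58 at chrXV:898441-898540 (minus strand), with both elements in capitals, neither of which contains the other (CTCATC is GATGAG read on the other strand, and RIO1 holds 2 overlapping copies of GATGAG).
LTV1: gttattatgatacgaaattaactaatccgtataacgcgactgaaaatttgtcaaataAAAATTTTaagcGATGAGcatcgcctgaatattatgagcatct
RIO1: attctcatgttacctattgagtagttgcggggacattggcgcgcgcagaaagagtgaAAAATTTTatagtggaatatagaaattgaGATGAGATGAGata
NOP1: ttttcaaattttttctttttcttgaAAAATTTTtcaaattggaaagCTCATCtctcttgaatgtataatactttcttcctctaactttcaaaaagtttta
NOP58: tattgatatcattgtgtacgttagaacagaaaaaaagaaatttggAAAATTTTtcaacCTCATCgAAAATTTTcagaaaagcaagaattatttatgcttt

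**Figure D3:**
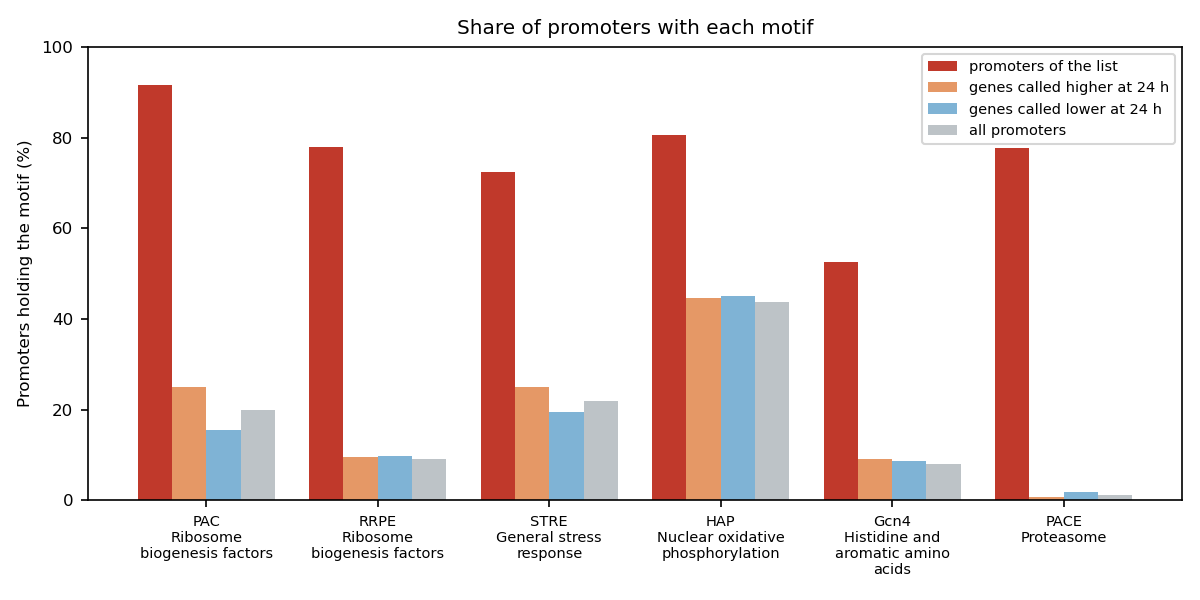
Percentage of promoters, from 250 bases before to 50 after the gene start, that hold each motif on either strand, for the named list, for genes called higher and called lower at 24 h, and for all 5916 promoters. PAC was in 91.7% of ribosome biogenesis promoters, 25% of those called higher, 15.4% of those called lower and 19.8% of all.

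Translation genes other than the ribosome were lower or not called. Of 21 tRNA synthetase genes, 20 were lower and 0 higher (median -1.05), with the tyrosine enzyme TYS1 at -2.99 and the tryptophan enzyme WRS1 at -2.24. Of 36 translation factors, 24 were lower and 0 higher (median -0.42), among them elongation factor subunits TEF4 (-1.96) and EFB1 (-1.42). ANB1, the form of eIF5A known from cells without oxygen, had 0.483, 0.833 and 0.434 CPM at 24 h and 47.1, 46.2 and 42.6 CPM at 6 h (-6.22 ± 0.31), on 3, 6 and 3 counts at 24 h. Its close copy HYP2 had 0 counts in every library, so the division of reads between them is uncertain.

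Mitochondrial ribosomal proteins were higher in 39 of 67 cases and lower in 2 (median 0.37), the opposite direction from the cytosolic ribosome. MRPL28 (1.56), MRPS17 (1.34) and RSM10 (1.29) had the largest rises, and MRPS8 (-0.49) and MRPL3 (-0.34) were lower. The call for MRPS8 was lost without replicate 2 of 6 h and without replicate 1 or 3 of 24 h. Of the 15 subunits and factors of RNA polymerase I, which transcribes ribosomal DNA, 5 were higher and 5 lower. The initiation factor RRN3 rose by 0.99, the largest subunit RPA190 by 0.55, and RPA12 (-1.44), RPA43 (-1.23) and RPA49 (-0.74) fell. RNA polymerase III genes were also divided, 8 higher and 7 lower of 21.

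Genes for lysine, histidine, aromatic and branched-chain amino acids were mostly lower. For lysine, 8 of 10 genes were lower and 0 higher (median -2.16), and the saccharopine dehydrogenase LYS9 had 93.3, 114 and 109 CPM at 24 h and 2958, 3158 and 3089 CPM at 6 h (-4.86 ± 0.09). LYS1 (-3.58) and LYS12 (-3.57) fell next most. For histidine and the aromatic amino acids, 17 of 19 were lower and 1 higher (median -1.29), and HIS1, the first enzyme of histidine synthesis, had 69.8, 82.7 and 78.9 CPM at 24 h and 779, 910 and 853 CPM at 6 h (-3.46 ± 0.10). Neither LYS9 nor HIS1 overlapped between the times. The higher member, ARO10 (2.00), breaks down aromatic amino acids. For the branched chains 9 of 12 were lower and 1 higher (median -0.90), with LEU1 (-1.62) and BAT1 (-1.91) among the lower.

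TGACTC, the core site of the amino acid regulator GCN4, was in 10 of 19 histidine and aromatic promoters (52.6%) and in 8.10% of all promoters. Among all genes called higher it was in 8.99%, and among all called lower in 8.67%.

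Glutamate, glutamine and arginine genes were mixed, 13 of 35 higher and 18 lower. The NADP-dependent glutamate dehydrogenase GDH1, used on glucose, fell by 1.58, while its isoform GDH3, used on ethanol, had 1959, 2309 and 2238 CPM at 24 h and 48.7, 35.5 and 47.5 CPM at 6 h (5.63 ± 0.15). Glutamate-consuming GDH2 rose by 2.65. The proline permease PUT4 rose by 5.72, and proline oxidase PUT1 had 387, 373 and 377 CPM at 24 h and 12.6, 14.3 and 15.3 CPM at 6 h (4.74 ± 0.10). PUT2, the next enzyme of proline breakdown, rose by 0.56. Of the proline synthesis genes, PRO2 (-0.76) and PRO3 (-1.01) were lower. PRO1 (-0.21) was not called, though it was called lower without replicate 1 of 6 h or replicate 2 of 24 h. In sulfate assimilation and methionine synthesis 17 of 31 genes were higher and 8 lower (median 0.48), with the sulfate permeases SUL1 (2.16) and SUL2 (1.26) and homoserine acetyltransferase MET2 (2.34) higher and cystathionine lyase CYS3 (-2.22) lower. Of 22 purine and one-carbon genes 14 were lower and 3 higher, led by IMD2 (-4.46), a GTP-synthesis gene with close copies. Pyrimidine genes showed 8 lower and 6 higher of 17.

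The sterol pathway is the native route to the precursors of introduced steroids. Of 10 mevalonate pathway genes, 7 were lower and 1 higher (median -0.47), none by 2-fold. From squalene to ergosterol, 8 of 16 were lower and 5 higher (median -0.09). ERG1, squalene epoxidase (chrVII:846933-848423), had 810, 754 and 745 CPM at 24 h and 8576, 9303 and 9184 CPM at 6 h (-3.55 ± 0.10). It held 525 ± 19.5 FPKM at 24 h and 6004 ± 236 FPKM at 6 h (SD, n = 3 each), and no library of one time came near those of the other. ERG11, lanosterol demethylase, had 2080, 1859 and 1832 CPM at 24 h and 1488, 1654 and 1613 CPM at 6 h (0.28 ± 0.08). ERG3 (1.05) and ERG5 (0.82), desaturases late in the pathway, rose, while ERG2 (-1.15) and ERG28 (-1.02) fell. The labels do not say whether the tables count a native ERG1 alone or also an added copy.

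Of 11 heme synthesis and use genes, 4 were higher and 7 lower. HEM13, known to be high when oxygen is low, had 154, 129 and 140 CPM at 24 h and 625, 634 and 619 CPM at 6 h (-2.15 ± 0.09), and HMX1, a heme oxygenase of iron-starved cells, rose by 5.49. ROX1, the heme-dependent repressor of genes of low oxygen, rose by 1.43. Of 11 genes of sterol uptake and the anaerobic cell wall, 5 were higher and 5 lower (median -0.11). The lower ones were the wall mannoproteins TIR1 (-2.65), DAN1 (-2.59), TIR2 (-1.66) and DAN4 (-1.34) and the sterol transporter AUS1 (-0.40). The higher ones were PAU24 (1.92) and PAU23 (0.46), of a family with close copies, the sterol-binding protein HES1 (1.26), the transporter PDR11 (0.60) and the mannoprotein TIR4 (0.44). The call for AUS1 was lost without replicate 1 or 3 of 6 h or replicate 2 or 3 of 24 h, that for PAU23 without replicate 2 of 6 h or replicate 2 or 3 of 24 h, and that for TIR4 without replicate 2 of 6 h or replicate 1 of 24 h. In fatty acid synthesis 10 of 15 genes were lower, the elongases ELO3 (-2.75), ELO2 (-2.0) and ELO1 (-1.69) among them, and 3 were higher. OLE1, the fatty acid desaturase, had 1980, 1628 and 1710 CPM at 24 h and 205, 198 and 200 CPM at 6 h (3.14 ± 0.09). Phospholipid genes were lower in 16 of 20 cases, such as PIS1 (-2.63) and OPI3 (-1.39), and INO1, inositol-phosphate synthase, was the 1 higher member with 8573, 8487 and 8445 CPM at 24 h and 4240, 4621 and 4509 CPM at 6 h (0.93 ± 0.07). Sterol ester and storage lipid genes numbered 9 lower and 4 higher of 16.

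Folding in the secretory pathway was lower. Of 23 genes of the unfolded protein response and endoplasmic reticulum folding, 20 were lower and 2 higher (median -1.37). The chaperone KAR2 had 571, 561 and 547 CPM at 24 h and 3773, 3299 and 3801 CPM at 6 h (-2.70 ± 0.09). The oxidase ERO1 (-3.28), disulfide isomerase PDI1 (-1.37) and HAC1 (-1.26), the transcription factor of the response, also fell. The stress sensor IRE1 (0.60) and the lectin YOS9 (0.48) were the higher members.

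Iron uptake genes rose. Of 31 genes of the iron regulon, 25 were higher and 2 lower (median 1.37), with summed levels of 18523, 17391 and 17412 CPM at 24 h against 2704, 2541 and 2751 CPM at 6 h. FIT3, a cell wall protein that holds iron-siderophores (chrXV:1060441-1061055), had 5216, 4953 and 4989 CPM at 24 h and 43.5, 26.9 and 46.2 CPM at 6 h (7.03 ± 0.18). FIT2, next to it, had 1883, 1953 and 1819 CPM at 24 h and 33.4, 38.7 and 43.9 CPM at 6 h (5.60 ± 0.12). The siderophore transporters ARN1 (3.80), ARN2 (4.06) and SIT1 (3.82), the multicopper oxidase FET3 (2.34) and the mRNA-decay factor TIS11 (3.52) rose, and the scaffold genes ISU1 (2.54) and ISU2 (-2.13) went opposite ways. Each library of 24 h lay far above each library of 6 h for FIT3 and for FIT2.

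Zinc, phosphate and vitamin genes changed less uniformly. ZPS1, a zinc-regulated cell surface protein, had 47.6, 43.7 and 42.0 CPM at 24 h and 1125, 1577 and 1247 CPM at 6 h (-4.89 ± 0.14), and the alcohol dehydrogenase ADH4, which zinc shortage induces, fell by 3.84. Of 11 zinc and copper genes tested, 6 were lower and 3 higher, with the copper transporter CTR1 higher (2.2). Of 20 phosphate starvation genes, 7 were higher and 7 lower, and the sodium-phosphate cotransporter PHO89 had 176, 155 and 173 CPM at 24 h and 4.15, 5.09 and 5.70 CPM at 6 h (5.06 ± 0.12). Vitamin genes were higher in 13 of 27 cases and lower in 9, with the biotin synthesis genes BIO2 (2.48), BIO3 (2.89) and BIO4 (2.04) higher and the riboflavin gene RIB4 lower (-1.89). Nitrogen catabolite genes were higher in 16 of 34 cases and lower in 11, from the glutamine permease GNP1 (-4.27) to PUT4.

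Protein turnover moved both ways. Of 36 proteasome genes, 23 were lower and 1 higher (median -0.31), with 12 not called. PRE6, a subunit of the core particle, had 147, 161 and 157 CPM at 24 h and 311, 353 and 326 CPM at 6 h (-1.09 ± 0.08), the largest fall of the list. The higher member was RPN4 (0.89), the transcription factor of proteasome genes. Its known site GGTGGCAAA was in 28 of 36 proteasome promoters (77.8%) and in 1.20% of all promoters. Among all genes called higher the site was in 0.729%, and among all called lower in 1.73%. The PRE6 stretch at chrXV:255163-255262 (plus strand) is shown with the site, on the opposite strand, in capitals as TTTGCCACC.
PRE6: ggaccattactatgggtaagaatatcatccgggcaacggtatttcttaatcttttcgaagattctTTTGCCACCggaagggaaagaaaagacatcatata

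In contrast to the proteasome, 19 of 32 autophagy and vacuolar protease genes were higher and 6 lower (median 0.67). ATG8, the protein that builds the autophagosome membrane, had 196, 203 and 197 CPM at 24 h and 68.7, 97.8 and 53.8 CPM at 6 h (1.43 ± 0.17). ATG39, a receptor for autophagy of the nucleus, rose by 4.01, and vacuolar protease PRB1 had 4782, 4019 and 4367 CPM at 24 h and 1536, 1396 and 1692 CPM at 6 h (1.51 ± 0.11). The groups were separated for each of the 2 genes with values given.

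Cell cycle genes were mostly lower, with 23 of 36 lower and 7 higher (median -0.50). The mitotic cyclin genes CLB2 (-2.09) and CLB1 fell, CLB1 with 61.5, 63.0 and 70.6 CPM at 24 h and 173, 180 and 181 CPM at 6 h (-1.45 ± 0.10). Lower members also included chitinase CTS1 (-1.32), DSE2 (-1.80) and DSE4 (-1.20), which act in daughter cell separation, while DSE3, another daughter cell gene, was at 0.22, a call that was lost when any 1 of the 6 libraries was left out. ASH1 (1.02), the S-phase cyclin gene CLB5 (0.77) and the cell cycle inhibitor gene SIC1 (0.34) were higher. DNA replication genes were balanced, 9 higher and 10 lower of 28. Of 10 histone genes 6 were lower and 1 higher, HTA2 (-2.76) and HTB2 (-2.90) most of all, while HTA1 rose by 0.72. How reads were divided among histone genes of similar sequence is uncertain. In the cell wall list, 14 of 37 were higher and 15 lower, from the transglycosidase UTR2 (-4.16) to PIR3, with 2635, 2196 and 2217 CPM at 24 h and 74.3, 60.5 and 84.8 CPM at 6 h (5.0 ± 0.12).

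All 5 tested alpha cell genes were lower, MF(ALPHA)2 (-2.53) and SAG1 (-1.82) most of all, and the call for MF(ALPHA)1 (-0.27) was lost without replicate 1 or 2 of 6 h or without replicate 2 or 3 of 24 h. Of 7 tested a cell genes, 3 were higher, 0 lower and 4 not called (median 0.39). The haploid gene STE12, the pheromone pathway's transcription factor, fell by 1.57. Sporulation genes, not expressed as a programme in haploids, were higher in 6 and lower in 5 of 21 cases, with a summed level of 633, 577 and 596 CPM at 24 h and 434, 424 and 449 CPM at 6 h.

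Several large changes lay outside these groups. PMA1, the plasma membrane proton pump and an abundant transcript, had 3894, 2885 and 3336 CPM at 24 h and 9056, 6849 and 9284 CPM at 6 h (-1.32 ± 0.14). HSP150, a secreted cell wall glycoprotein, had 7233, 5811 and 6115 CPM at 24 h and 2757, 1987 and 3142 CPM at 6 h (1.28 ± 0.15). VEL1, a gene of unknown function induced by low zinc, had 1.29, 1.67 and 1.74 CPM at 24 h and 188, 248 and 181 CPM at 6 h (-7.01 ± 0.21). ARI1, an aldehyde reductase, fell by 5.01, and NDJ1, a meiotic telomere gene, fell by 5.13 with 5, 3 and 3 counts at 24 h. PMA1 and HSP150 did not overlap between the times, and VEL1, ARI1 and NDJ1 were named under that condition.

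The change over time in LP104-17 was then set against the same change in LP085-Vc by an interaction term of the same model. A positive difference means a higher log2 fold change in LP104-17. It was called for 2032 genes (33.1%), 1092 of them positive (17.8%) and 940 negative (15.3%). The near balance depended on the scale, since on log2(FPKM + 1) and log2(FPKM + 0.1) with limma 1292 and 1289 were positive and 545 and 528 negative. Of the 2160 genes that were higher at 24 h in LP104-17, 343 had a more positive change than in LP085-Vc, 431 a more negative one, and 1386 were not called in the interaction. Of the 2187 lower genes, 298 had a more negative change in LP104-17, 543 a more positive one and 1346 were not called. The sign itself differed, with both changes and the interaction called, for 132 genes that rose in LP104-17 and fell in LP085-Vc and for 57 that fell in LP104-17 and rose in LP085-Vc.

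Ribosome building set these strains apart. Of 132 ribosome biogenesis factors, 117 had a more positive change in LP104-17 than in LP085-Vc and 0 a more negative one, with median log2 fold changes over time of 0.65 in LP104-17 and -0.70 in LP085-Vc. The difference was called in the same direction for 56 of 57 small-subunit and 74 of 81 large-subunit ribosomal protein genes, with medians of -1.06 and -1.0 in LP104-17 and -2.56 and -2.61 in LP085-Vc. The tRNA synthetases followed with 18 of 21 called (medians -1.05 in LP104-17 and -2.37 in LP085-Vc), whereas only 1 mitochondrial ribosomal protein gene of 67 was called higher and 3 lower. HAS1, a helicase of ribosome assembly, averaged 52.5 ± 3.51 CPM at 24 h and 59.7 ± 2.25 CPM at 6 h in LP104-17, against 3.60 ± 0.298 CPM at 24 h and 42.0 ± 2.90 CPM at 6 h in LP085-Vc (SD, n = 3 each). The difference in log2 fold change was 3.35 ± 0.16 (adjusted p = 6.89e-11, edgeR). The nucleolar genes UTP13 (3.30), NSR1 (3.26) and NOP58 (3.19) and the RNA polymerase I subunit RPA49 (3.15) had differences of the same size. HXT6 had the largest, 3.65, with the uncertainty of its copy HXT7.

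**Figure D4:**
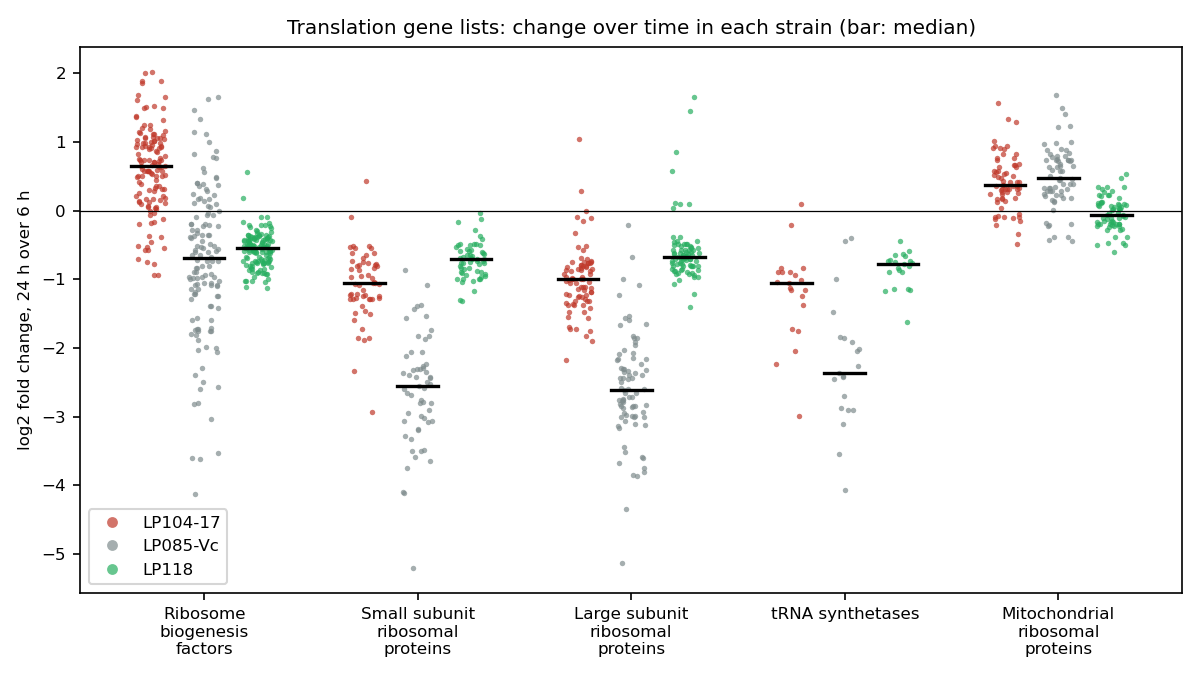
Log2 fold changes of 24 h over 6 h in LP104-17, LP085-Vc and LP118 for the members of 5 translation gene lists, one point per gene and a bar at the median. For ribosome biogenesis factors the medians were 0.65 in LP104-17, -0.70 in LP085-Vc and -0.55 in LP118, while ribosomal protein medians were lowest in LP085-Vc.

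Sulfur genes also differed: 24 of 31 had a more positive change in LP104-17 than in LP085-Vc and 1 a more negative one, with median changes of 0.48 in LP104-17 and -0.89 in LP085-Vc. Changes were more negative in LP104-17 for 11 of 16 glyoxylate and gluconeogenesis genes and more positive for 3, and for 11 of 24 acetate genes with 0 more positive. In the general stress list 25 of 40 were more negative and 4 more positive, and in the trehalose and glycogen list 14 of 22 were more negative and 0 more positive. Of 41 oxidative phosphorylation genes, 10 were more positive, 1 more negative and 30 not called (median difference 0.35). In the tricarboxylic acid cycle, 6 of 18 genes were more positive, 3 more negative and 9 not called (median difference 0.09). Over all tested genes, 17.8% were more positive and 15.3% more negative. SFC1 averaged 421 ± 46.4 CPM at 24 h and 2.54 ± 1.19 CPM at 6 h in LP104-17, against 1499 ± 129 CPM at 24 h and 1.94 ± 0.282 CPM at 6 h in LP085-Vc (difference -2.25 ± 0.34). MDH2 averaged 487 ± 34.7 CPM at 24 h and 341 ± 6.40 CPM at 6 h in LP104-17, against 2129 ± 139 CPM at 24 h and 263 ± 10.8 CPM at 6 h in LP085-Vc (difference -2.50 ± 0.11, adjusted p = 5.29e-11, edgeR). The acetate transporter ADY2 (-2.45), the spore wall gene SPS100 (-3.15), PHM7 (-2.21) and the meiotic regulator IME1 (-2.05) completed the 6 most negative. Glycolysis differed little, with 4 of 20 genes called positive and 3 negative and equal medians of -3.12.

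Against LP118 more genes differed, and the LP104-17 libraries are shared with the comparison above. The interaction was called for 3056 genes (49.8%), 1552 positive (25.3%) and 1504 negative (24.5%). On the same FPKM scales 1178 and 1157 were positive and 1845 and 1837 negative. Of the 2160 genes higher in LP104-17, 1237 had a more positive change than in LP118 and 123 a more negative one. Of the 2187 lower genes, 1160 had a more negative change in LP104-17 and 61 a more positive one. Opposite called changes were seen for 257 genes that rose in LP104-17 and fell in LP118 and for 216 that fell in LP104-17 and rose in LP118.

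Carbon metabolism separated these strains. All 20 glycolysis genes had a more negative change in LP104-17 (median log2 fold changes -3.12 in LP104-17 and -0.54 in LP118). Of 16 glyoxylate and gluconeogenesis genes 15 were more positive (2.58 in LP104-17 and 0.53 in LP118), as were 37 of 41 oxidative phosphorylation genes (2.37 in LP104-17 and 0.48 in LP118) and 14 of 18 genes of the tricarboxylic acid cycle (2.08 in LP104-17 and 0.28 in LP118). FBP1 averaged 1216 ± 78.7 CPM at 24 h and 12.8 ± 1.65 CPM at 6 h in LP104-17, against 16.2 ± 3.30 CPM at 24 h and 11.3 ± 2.98 CPM at 6 h in LP118 (difference 6.06 ± 0.26, adjusted p = 4.28e-13, edgeR). NCE103, carbonic anhydrase, averaged 789 ± 24.1 CPM at 24 h and 61.1 ± 7.02 CPM at 6 h in LP104-17, against 170 ± 12.7 CPM at 24 h and 741 ± 40.1 CPM at 6 h in LP118 (difference 5.81 ± 0.15), and so moved in opposite directions. RGI2 (7.23), MLS1 (6.03), DPA10 (5.64) and PCK1 (5.36) were the other most positive differences. That of RGI2 had an SE of 0.97 and rests on low values. RGI2 averaged 2.36 ± 0.608 CPM at 24 h and 0.723 ± 0.385 CPM at 6 h in LP118.

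The 6 most negative differences from LP118 were those of HXT4, TDH1, TPO2, HXT3, ANB1 and ENO1. HXT4, a glucose transporter, averaged 9.0 ± 0.609 CPM at 24 h and 120 ± 5.88 CPM at 6 h in LP104-17, against 458 ± 21.0 CPM at 24 h and 15.5 ± 1.42 CPM at 6 h in LP118 (difference -8.61 ± 0.18, adjusted p = 6.15e-18, edgeR). TDH1 averaged 479 ± 12.9 CPM at 24 h and 3731 ± 314 CPM at 6 h in LP104-17, against 6264 ± 624 CPM at 24 h and 175 ± 16.8 CPM at 6 h in LP118 (difference -8.12 ± 0.16). The polyamine exporter TPO2 (-6.99), HXT3 (-6.73), ANB1 (-6.49) and ENO1 (-6.34) followed. HXT4, TDH1, TPO2, HXT3 and ENO1 were called lower over time in LP104-17 and higher in LP118, while ANB1 was lower in LP104-17 and not called in LP118. Changes of ribosome biogenesis factors were again more positive in LP104-17, 115 of 132 with 0 more negative (medians 0.65 in LP104-17 and -0.55 in LP118). A more positive change did not mean a higher level. HAS1 averaged 166 ± 16.9 CPM at 24 h and 323 ± 19.4 CPM at 6 h in LP118, against 52.5 and 59.7 CPM in LP104-17. UTP13, NSR1, NOP58 and RPA49 were likewise higher in LP118 at both times. Levels of the other factors in LP118 are not described here. Changes of ribosomal protein genes were not more positive as a group: 1 of 57 small-subunit genes was more positive and 19 more negative, and 1 of 81 large-subunit genes more positive and 28 more negative. In sulfur metabolism the order was also reversed, with 20 of 31 more negative in LP104-17 than in LP118 (medians 0.48 in LP104-17 and 1.21 in LP118).

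**Figure D5:**
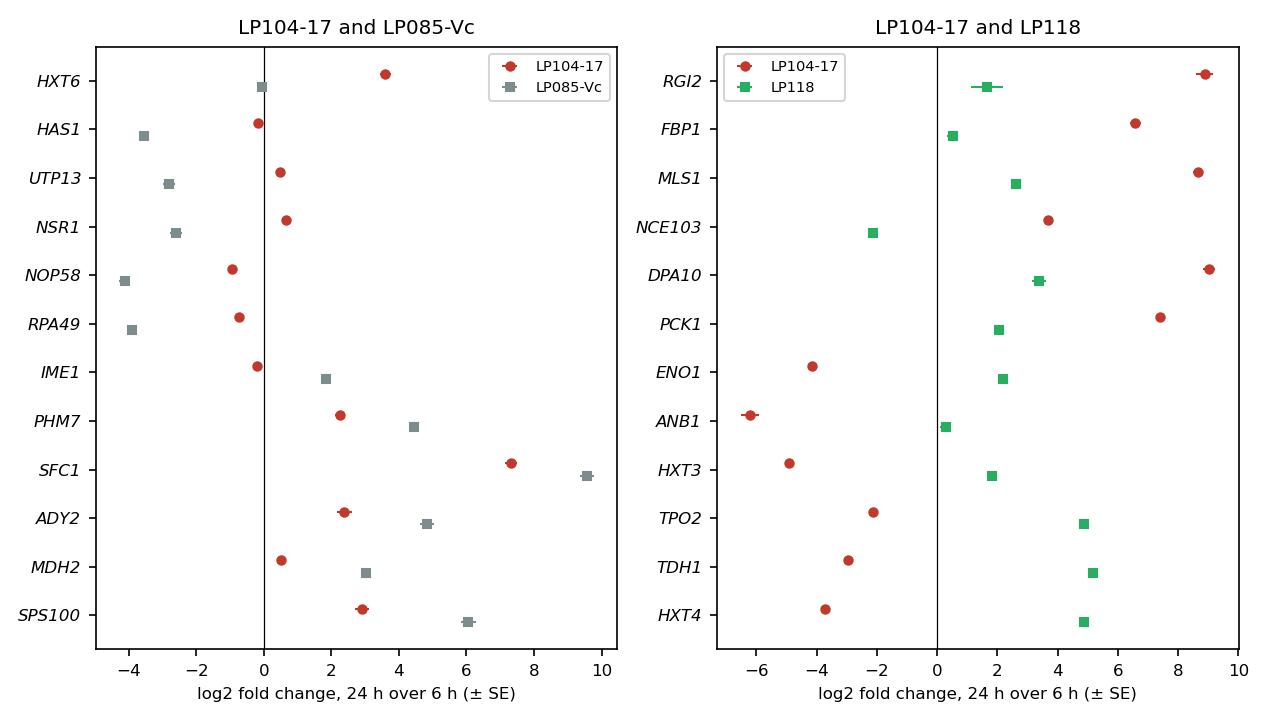
Log2 fold changes of 24 h over 6 h, ± SE, for the 6 genes with the most positive and the 6 with the most negative differences between LP104-17 and LP085-Vc (left) and between LP104-17 and LP118 (right). In the left panel HAS1 was at -0.18 in LP104-17 and -3.53 in LP085-Vc, and in the right panel HXT4 was at -3.73 in LP104-17 and 4.88 in LP118.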

How the data were processed

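Total RNA of 18 yeast libraries was sequenced. The submitters' processing notes name Bowtie2 2.2.5 and build R64. How reads were counted, with which annotation and strand setting, was not given in the sources used here. The authors deposited raw read counts per gene, whole numbers with no normalization, per the file headers, and FPKM values, scaled by coding length and library size by the authors per the file headers. Of 6600 gene identifiers, 5917 (89.7%) matched RefSeq R64, which gave symbols, coordinates and promoters.

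Counts of all 18 libraries were fitted with edgeR 4.0.16 (R 4.3.3) quasi-likelihood, 6 group means, TMM factors of 0.914 to 1.11 and 12 residual degrees of freedom. The filter (minimum count 10, minimum total 15) kept 6131 genes and removed 469. Tests were two-sided, with Benjamini-Hochberg adjustment and a threshold of 0.05. The biological coefficient of variation was 11.2%. On simulated data with 6115 genes, this comparison called 73.1% of 1.5-fold, 97% of 2-fold and 100% of 4-fold changes and 0.186% of unchanged genes. The simulation changed 67, 67 and 66 genes by these folds, left 5915 unchanged and had no effect of gene length. In the real data 70.9% of tested genes were called and libraries differed by gene length. The simulated rates therefore do not carry over directly.

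Named genes are the 14 largest rises and falls (with a symbol, no overlap between times and a mean of 10 CPM or more at the higher time), the 10 largest CPM gains and losses, members of described lists, and 6 interaction genes per direction. HIS3, LEU2, LYS2 and URA3 are named as background. Members and lists were chosen with earlier results of these data known. Alternatives used DESeq2 1.42.0 and limma 3.58.1 on log2(FPKM + pseudocount), among others. Python 3.11.15 was used for tables and figures. Some items are not reported here.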

Additional observations from a re-analysis of the deposited data

Results flagged for a closer look

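The following genes changed over time by different amounts in LP104-17 and another strain, with an interaction term in edgeR's quasi-likelihood model below the threshold of 0.05 after Benjamini-Hochberg adjustment. All values are the log2 fold change of 24 h over 6 h in LP104-17 minus that in the other strain.

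Against LP085-Vc the most positive differences were 3.65 for HXT6, 3.35 for HAS1, 3.30 for UTP13, 3.26 for NSR1, 3.19 for NOP58 and 3.15 for RPA49. The most negative were -3.15 for SPS100, -2.50 for MDH2, -2.45 for ADY2, -2.25 for SFC1, -2.21 for PHM7 and -2.05 for IME1. HAS1 and IME1 were themselves not called over time in LP104-17 (-0.18 and -0.20). In 132 genes the change was called higher in LP104-17 and lower in LP085-Vc, and in 57 it was called lower in LP104-17 and higher in LP085-Vc.

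Against LP118 the most positive differences were 7.23 for RGI2, 6.06 for FBP1, 6.03 for MLS1, 5.81 for NCE103, 5.64 for DPA10 and 5.36 for PCK1. The value for RGI2 had an SE of 0.97, with low CPM in LP118 at both times. The most negative were -8.61 for HXT4, -8.12 for TDH1, -6.99 for TPO2, -6.73 for HXT3, -6.49 for ANB1 and -6.34 for ENO1. In 257 genes the change was called higher in LP104-17 and lower in LP118, and in 216 it was called lower in LP104-17 and higher in LP118. Both comparisons use the same LP104-17 libraries.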

How the results depend on the processing

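No gene called between 24 h and 6 h was called in the opposite direction under any alternative run, and 92.4% to 99.5% of the 4347 calls were kept. Counts of higher and lower genes were 2135 and 2200 with DESeq2 size factors, 2151 and 2196 with no filter, 2306 and 2266 with the coding length trend removed, 2102 and 1998 from the 6 LP104-17 libraries alone, 2153 and 2207 in DESeq2, and 2230 and 2033 or 2207 and 2026 on log2(FPKM + 1) or log2(FPKM + 0.1) with limma. Leaving out 1 library gave 2037 to 2132 higher and 2045 to 2100 lower genes. With the replicate number as a replicate block they were 2136 and 2129. Deviations of same-numbered libraries correlated at 0.252, 0.155 and -0.198, so the numbers are not shown to pair them.

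Against LP085-Vc, negative interactions fell to 545 and 528 genes on the FPKM scales, against 940 in the counts, with 1292 and 1289 positive ones (70.3% and 70.9% of calls, against 53.7%), and the median of all genes was 0.103 and 0.105 higher. Against LP118 the positive share was 39.0% and 38.6%, against 50.8%, and the median shift was -0.137 and -0.143. The cause was not tested. The replicate block gave 1045 and 855 genes against LP085-Vc and 1531 and 1451 against LP118. The calls for HXT7, MF(ALPHA)1, MRPS8, AUS1, PAU23, TIR4 and DSE3 were lost under some alternatives, and GSY2 and PRO1 were called lower under some. Of 770 list medians 27 moved by more than the spread between libraries, in 13 lists. Of 16 motif shares, 8 left their binomial confidence interval when only bases before the gene start were searched. Over all promoters, CCAAT went from 43.7% to 35.8% and GATGAG from 19.8% to 16.5%. In the ribosome biogenesis promoters, GATGAG went from 91.7% to 88.6%.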
